A study of Rattus norvegicus with 12 samples.

Results

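The Schlafen genes of the rat liver, led by Slfn4, were followed across 12 libraries of healthy, untreated male liver. The 5 genes Slfn4, Slfn2, Slfn3, Slfn5 and Slfn13 were looked up by symbol in the list of 32883 features deposited with the single-nucleus data, and 4 of them were found. Slfn3 is not listed there and is not analysed here. The set was chosen by measured values, since Slfn4 stood among the most counted genes of Kupffer nuclei and its fold between strains differed between cells and nuclei, and both of these patterns are given for Slfn4 as descriptions with no test.

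Total liver homogenate (TLH), the unsorted cell suspension made by collagenase perfusion, was sequenced from 2 Dark Agouti (DA) and 2 Lewis (LEW) rats. Nuclei were extracted from frozen liver of 2 DA and 2 LEW rats, an immune-enriched suspension with an additional wash came from 1 DA and 1 LEW rat, and 2 sections of Wistar liver were profiled on Visium slides. DA and LEW are inbred strains and Wistar is an outbred stock. The TLH libraries used 10x 3′ version 2 chemistry and the nuclei and immune-enriched libraries version 3, so chemistry, dissociation and cell compartment cannot be told apart between TLH cells and nuclei, and the study's text calls the rats of the nuclei set additional ones while the file names of both sets carry the same animal numbers within each strain. The file names hold an age of 10 weeks for the DA and 13 weeks for the LEW rats of the TLH set and 9 weeks for both immune-enriched rats, and these differ from the ages in the study's text and from those in the series description. The study's text describes the strains as matched for age. If the ages in the file names hold, age cannot be told apart from strain in the TLH set.

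Schlafen proteins are a family of mammalian proteins that share an N-terminal Schlafen domain, and several members cleave or bind RNA. Many members are induced by type I interferon, and the family is best known in T cells and in cells of the monocyte and macrophage line, where Slfn2 is required for the quiescence of T cells and Slfn4 marks activated or differentiating myeloid cells. Slfn5 and Slfn13 belong to the longer members with a helicase-like part, and human SLFN13 cuts transfer RNA. Kupffer cells are the resident macrophages of the liver sinusoids, known by the receptors Marco, Clec4f and Vsig4 and by the secreted protein Cd5l.

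The 4 genes carry the identifiers ENSRNOG00000057092 (Slfn4), ENSRNOG00000037113 (Slfn2), ENSRNOG00000021719 (Slfn5) and ENSRNOG00000021412 (Slfn13) in the feature list, and all lie on chromosome 10 in RefSeq. RefSeq gives Slfn13 as an older name of Slfn9, and it gives Slfn3 both a symbol of its own and a place among the older names of Slfn4, so reads of Slfn3 could be counted under Slfn4. Slfn1, Slfn8, Slfn9 and Slfn14 are not in the feature list. The more distant relative Slfnl1 is listed and had 0 UMIs in the Kupffer-like cells of all 4 TLH libraries.

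The 250 bases before the start of Slfn4, Slfn2 and Slfn5 are shown because the 3 genes are those with the most UMIs in Kupffer-like cells, the class the results turn on. They come from the RefSeq promoter table of build GRCr8, 5′ to 3′ on the strand of the gene (plus for all 3), at chr10:68491970-68492219 for Slfn4, chr10:68450611-68450860 for Slfn2 and chr10:68378190-68378439 for Slfn5, whose table holds 2 starts. Capitals mark matches on either strand to 5 short motifs, which are the interferon-stimulated response element core GAAANNGAAA, the AP-1 motif TGANTCA, the cyclic AMP response half-site TGACGT, the ETS motif AGGAAGT and the TATA box TATAAA.
Slfn4: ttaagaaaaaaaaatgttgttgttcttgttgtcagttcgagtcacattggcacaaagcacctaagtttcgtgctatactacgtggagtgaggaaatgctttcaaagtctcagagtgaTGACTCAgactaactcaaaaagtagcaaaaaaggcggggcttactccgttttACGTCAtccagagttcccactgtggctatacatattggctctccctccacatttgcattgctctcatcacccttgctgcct
Slfn2: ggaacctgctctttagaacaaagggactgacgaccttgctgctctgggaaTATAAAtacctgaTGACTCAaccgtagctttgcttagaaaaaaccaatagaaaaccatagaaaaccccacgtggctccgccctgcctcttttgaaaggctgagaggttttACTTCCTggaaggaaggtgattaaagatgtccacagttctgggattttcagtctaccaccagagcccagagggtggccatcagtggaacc
Slfn5: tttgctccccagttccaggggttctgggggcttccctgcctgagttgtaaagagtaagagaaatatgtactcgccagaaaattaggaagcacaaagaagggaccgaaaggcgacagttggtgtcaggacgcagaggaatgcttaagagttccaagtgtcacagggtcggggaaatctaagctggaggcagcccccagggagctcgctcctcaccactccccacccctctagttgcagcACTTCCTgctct
The AP-1 letters stood 133 bases before the start of Slfn4 and 187 bases before that of Slfn2, and 6.34% of the 33469 windows of the same length in the table hold them. Slfn4 also had the half-site on the other strand 81 bases before its start (6.95% of windows). Slfn2 had the ETS letters on the other strand 90 bases and the TATA letters 200 bases before its start, and Slfn5 the ETS letters on the other strand 12 bases before its start (7.08% of windows hold the ETS and 12.9% the TATA letters). No window of the 3, nor that of RefSeq Slfn9, matched the interferon core, which 3.41% of windows hold. A match is a description of letters and not a binding site.

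The libraries held 61441846 to 92484173 unique molecular identifiers (UMIs, one per captured RNA molecule) for TLH, 8039397 to 15186970 for nuclei, and 48255870 (DA) and 60005133 (LEW) for the immune-enriched cells. After filters on UMIs and mitochondrial share, 3844 to 7112 TLH cells and 2205 to 5262 nuclei remained per library, and pairs of nuclei libraries shared at most 6 barcodes. Cells were clustered and clusters were called "X-like" from marker lists. UMIs of each class were summed per library and given as CPM, the UMIs of a gene for every 1000000 UMIs of that class and library. Kupffer-like cells numbered 515 and 621 in the DA and 335 and 355 in the LEW TLH libraries, and 61, 91, 66 and 90 nuclei in the same order. All 14 Kupffer markers were detected in each of these 8 libraries. Hepatocyte markers took 7.02 to 9.45% of the UMIs of Kupffer-like TLH cells and 5.87 to 7.75% of those of Kupffer-like nuclei, and their part in the results was not tested.

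Slfn4 was highest in Kupffer-like cells on both platforms, and it took a far larger share of the RNA of nuclei than of cells. In TLH its level was 476 and 654 CPM in DA and 1764 and 1328 CPM in LEW (524, 1276, 2076 and 1500 UMIs). In nuclei its level was 8684 and 8993 CPM in DA and 5124 and 4921 CPM in LEW (1195, 1907, 1361 and 1631 UMIs). The strains did not overlap on either platform, and their order was opposite, with LEW above DA in cells and DA above LEW in nuclei. The means were 565 ± 126 CPM in DA and 1546 ± 308 CPM in LEW (SD, n = 2 each) for TLH, 2.74-fold higher in LEW, and 8838 ± 219 CPM in DA and 5023 ± 143 CPM in LEW (SD, n = 2 each) for nuclei, 1.76-fold higher in DA. No test is given, since these values chose the gene.

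**Figure D1:**
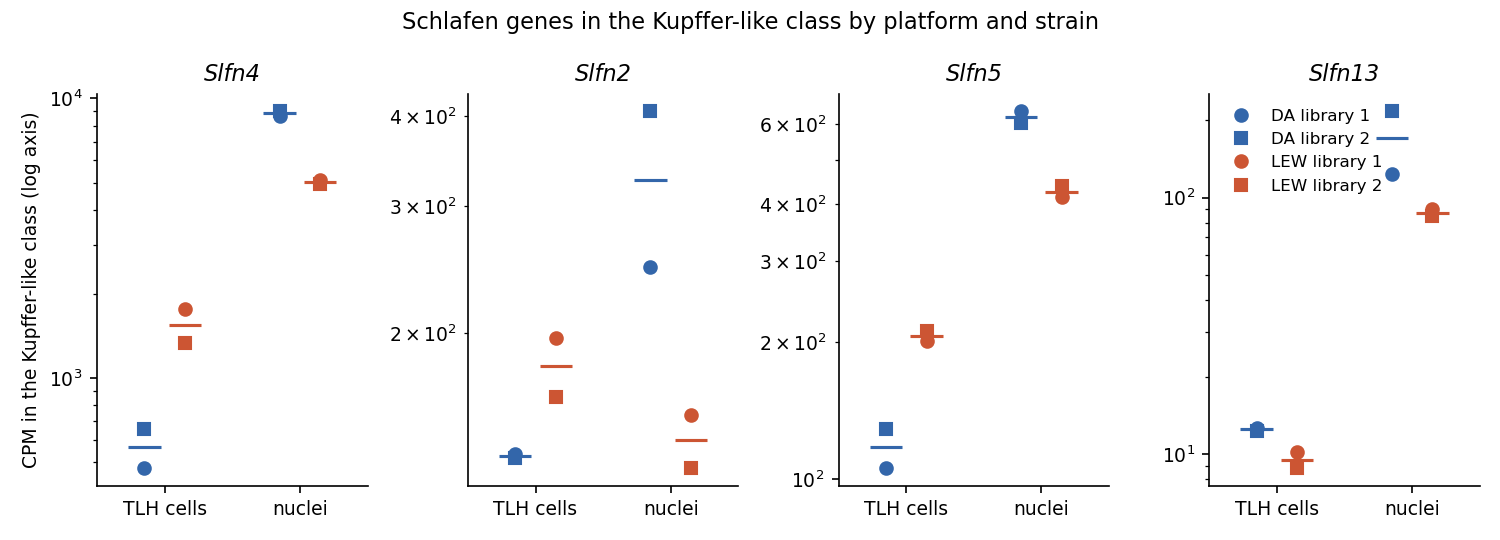
Level of each Schlafen gene in Kupffer-like TLH cells and nuclei, in CPM of the class on a log axis. Each point is 1 library, and short horizontal lines mark the strain means on each platform. For Slfn4 the LEW libraries (1328 and 1764 CPM) lie above the DA libraries in TLH and below them in nuclei (4921 and 5124 CPM).

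By UMIs counted, Slfn4 ranked 8th, 5th, 13th and 10th among the 10366 to 12008 genes detected in Kupffer-like nuclei of DA-1, DA-2, LEW-1 and LEW-2. In TLH it ranked 307th and 226th in DA and 89th and 130th in LEW. A Slfn4 UMI was found in 96.7, 96.7, 95.5 and 98.9% of Kupffer-like nuclei, and in 55.9, 76.8, 85.1 and 86.5% of Kupffer-like TLH cells. With every cell thinned to 1000 UMIs, which takes out depth, these shares were 91.3 to 92.9% in nuclei and 35.2, 44.8, 70.2 and 64.6% in TLH cells. Slfn4 was itself the first of the leading genes of both Kupffer-like clusters of nuclei and of 1 of the 2 in TLH. Genes named Slfn took no part in the clustering and are not among the naming markers. The level of Slfn4 in nuclei is part of why the gene was chosen. Most Kupffer-like nuclei carried a Slfn4 UMI in all 4 libraries, while the share of TLH cells differed between strains in the direction of the level. Hepatocyte-like cells, set beside them for comparison, had a Slfn4 UMI in 3.0 to 5.27% of TLH cells and 1.19 to 2.08% of nuclei. Kupffer-like cells were 6.14 to 9.24% of the kept TLH cells and held 63.8 to 76.8% of the Slfn4 UMIs in these. They were 1.25 to 3.6% of the kept nuclei and held 69.7 to 85.0% of the Slfn4 UMIs in those. Over all barcodes, kept or not, the TLH libraries held 2261, 3163, 6524 and 5773 Slfn4 UMIs, against 821, 1737, 2847 and 1954 in kept cells. For nuclei these were 2402, 3457, 2703 and 3048 against 1406, 2296, 1954 and 2027.

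The Kupffer-like class consisted of 2 clusters on each platform, and for nuclei the strain fold of Slfn4 depended on how they were weighted. In nuclei, cluster 25, the richer in Kupffer markers, had Slfn4 at 15657 and 18262 CPM in DA and at 12813 and 13532 CPM in LEW. Cluster 31, poorer in these markers and deeper (median 3370 to 4906.5 UMIs a nucleus against 1170.5 to 1505.5), had Slfn4 at 3205 and 2481 CPM in DA and at 3442 and 2052 CPM in LEW. DA still stood above LEW without overlap in cluster 25, and the strains overlapped in cluster 31. The hepatocyte gene Alb moved the other way in cluster 25, at 16533 and 14902 CPM in DA and 28395 and 22766 CPM in LEW, and its part was not tested. Cluster 25 held 39 of 61 and 66 of 91 Kupffer-like nuclei in DA and 28 of 66 and 52 of 90 in LEW. CPM weights the clusters by UMIs. In DA cluster 25 held 60547 of 137615 and 87506 of 212052 UMIs of the class. In LEW it held 47685 of 265596 and 82842 of 331410 UMIs. The deeper, Slfn4-poorer cluster 31 thus held more of the class in LEW. On the log2 scale of the CPM, LEW minus DA was -0.82 for the class, -0.36 within cluster 25 and -0.05 within cluster 31, a split added after seeing the data. In TLH the LEW libraries were above the DA libraries in both clusters, at 1690 and 1326 against 450 and 574 CPM in cluster 5, the richer in Kupffer markers, and at 1939 and 1334 against 540 and 790 CPM in cluster 8.

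The summed Kupffer markers themselves moved with strain in the same direction as Slfn4 on each platform. Their summed level in Kupffer-like TLH cells was 19437 and 22391 CPM in DA and 38251 and 38830 CPM in LEW, and in nuclei 11358 and 10252 CPM in DA and 6747 and 6050 CPM in LEW. Per 1000 UMIs of these markers, Slfn4 stood at 24.5 and 29.2 UMIs in DA and 46.1 and 34.2 UMIs in LEW TLH cells, a LEW over DA ratio of means of 1.5. In nuclei it stood at 765 and 877 UMIs in DA and 759 and 813 UMIs in LEW, a ratio of 0.958. On this denominator the TLH strains remained apart and the nuclei strains overlapped. Per UMI of Cd5l alone, Slfn4 in Kupffer-like nuclei was at 8.72 and 7.66 in DA and at 6.02 and 6.68 in LEW, still apart. Per UMI of Clec4f alone the nuclei strains overlapped. The summed markers were Marco, Vsig4, Clec4f, Cd5l, Hmox1, Cd163, C1qa, C1qb, C1qc, Aif1, Cd68, Mrc1, Ccl6 and Slc11a1. The study names Cd163 and Hmox1 among its top DA-enriched genes, so the sum can carry strain differences of its own. In nuclei cluster 25 Marco alone was at 1206 and 1348 CPM in DA and at 4509 and 1292 CPM in LEW. The part of marker content in the strain difference was not tested beyond this.

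**Figure D2:**
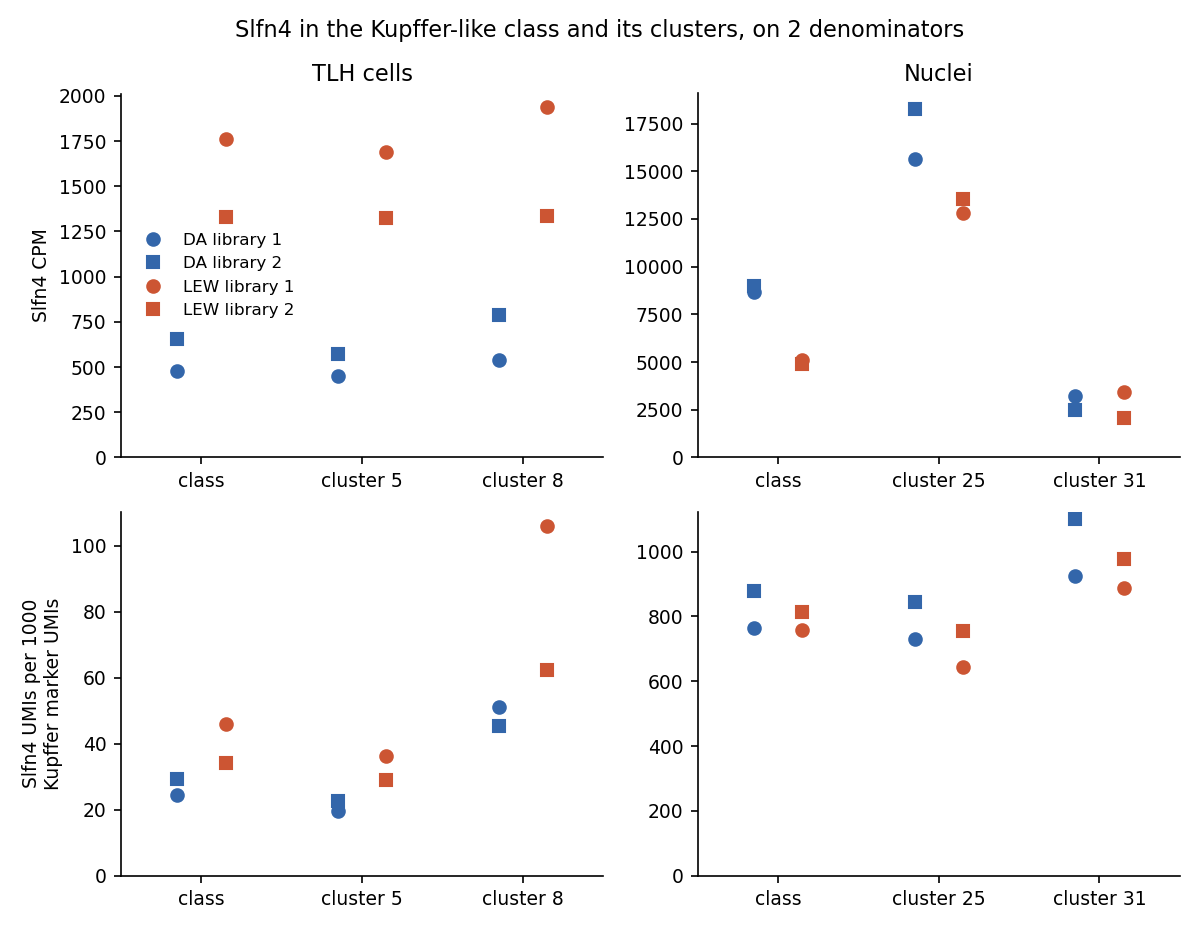
Slfn4 in Kupffer-like TLH cells and nuclei, with CPM in the upper panels and UMIs per 1000 Kupffer marker UMIs in the lower ones, for the whole class and each of its 2 clusters; each point is 1 library. In nuclei the DA libraries lie above the LEW libraries for the class in CPM (8684 and 8993 against 5124 and 4921), while per 1000 marker UMIs the 4 libraries lie between 759 and 877 with the strains overlapping.

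Within TLH, Slfn4 was higher in LEW than in DA in every class, and the strains overlapped in none. All classes come from the same 4 libraries, so they are not separate observations. How many of all genes separated the strains in this way was not counted. Lyz2/Cd74 myeloid-like cells, a class of monocyte and antigen-presenting cell character, had 180 and 197 CPM in DA and 954 and 430 CPM in LEW. Lymphocyte-like (NK and T) cells had 47.9 and 32.8 CPM in DA and 304 CPM in each LEW library. This class joined a cluster led by Ccl5, Gzma and Nkg7 (54.7 and 19.7 CPM in DA, 376 and 302 CPM in LEW) and one led by Cd3g, Cd3d and Cd3e (33.4 and 98.7 CPM in DA, 150 and 307 CPM in LEW), with 4 to 101 Slfn4 UMIs a library in each. Mesenchymal-like cells had 50.9 and 90.3 CPM in DA and 323 and 241 CPM in LEW. The LEW over DA ratio of the means was 3.67 in Lyz2/Cd74 myeloid-like, 7.53 in lymphocyte-like and 4.00 in mesenchymal-like cells. Endothelial-like cells followed with 23.9 and 22.7 CPM in DA and 101 and 60.5 CPM in LEW, and hepatocyte-like cells with 17.6 and 13 CPM in DA and 20.1 and 26.5 CPM in LEW. Averaged over the 4 libraries, the order of levels ran from Kupffer-like (1056 ± 598 CPM) over Lyz2/Cd74 myeloid-like (440 ± 361), mesenchymal-like (176 ± 128) and lymphocyte-like (172 ± 152) to endothelial-like (52.0 ± 37.1) and hepatocyte-like cells (19.3 ± 5.63, all SD, n = 4). This order held within each library except between mesenchymal-like and lymphocyte-like cells, which changed places in LEW-2. The SDs span the strain difference, and over all 4 libraries the ranges of each pair of neighbours overlapped.

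Slfn4 was also set against the Kupffer lectin Clec4f in the same cells. In hepatocyte-like TLH cells the ratio of Slfn4 to Clec4f UMIs was 0.361, 0.321, 0.679 and 0.574 (DA-1, DA-2, LEW-1, LEW-2), near the 0.304, 0.324, 0.687 and 0.496 of Kupffer-like cells. In hepatocyte-like nuclei it was 2.44, 0.932, 3.59 and 0.625, below the 8.58 to 12.0 of Kupffer-like nuclei. In Lyz2/Cd74 myeloid-like cells it was 2.93, 3.17, 16.5 and 4.57, and in lymphocyte-like cells 0.783, 2.5, 12.0 and 6.58 on only 4 to 23 Clec4f UMIs. These classes thus held more Slfn4 for their Clec4f than Kupffer-like cells of the same library did. The ratio was 0.222 to 0.742 in mesenchymal-like cells, near that of Kupffer-like cells, and 3.30 to 6.12 in mesenchymal-like nuclei. In endothelial-like cells it was 0.429, 0.455, 2.80 and 0.870, highest in LEW-1. The part of free RNA in the levels outside Kupffer-like cells was not tested.

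In nuclei, where no lymphocyte-like class was found, Slfn4 averaged 6931 ± 2208 CPM in Kupffer-like and 3221 ± 1824 CPM in Lyz2/Cd74 myeloid-like nuclei (SD, n = 4), of which the latter numbered only 10 to 15 a library. Their Slfn4 level was 1980 and 4720 CPM in DA and 1337 and 4846 CPM in LEW, so the strains overlapped. Endothelial-like nuclei (162 to 376 CPM) and mesenchymal-like nuclei (202 to 292 CPM) overlapped each other, and hepatocyte-like nuclei lay at 14.6 to 42.0 CPM. The DA over LEW order of Slfn4 in nuclei was seen without overlap in the Kupffer-like class and in none of these other classes.

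**Figure D3:**
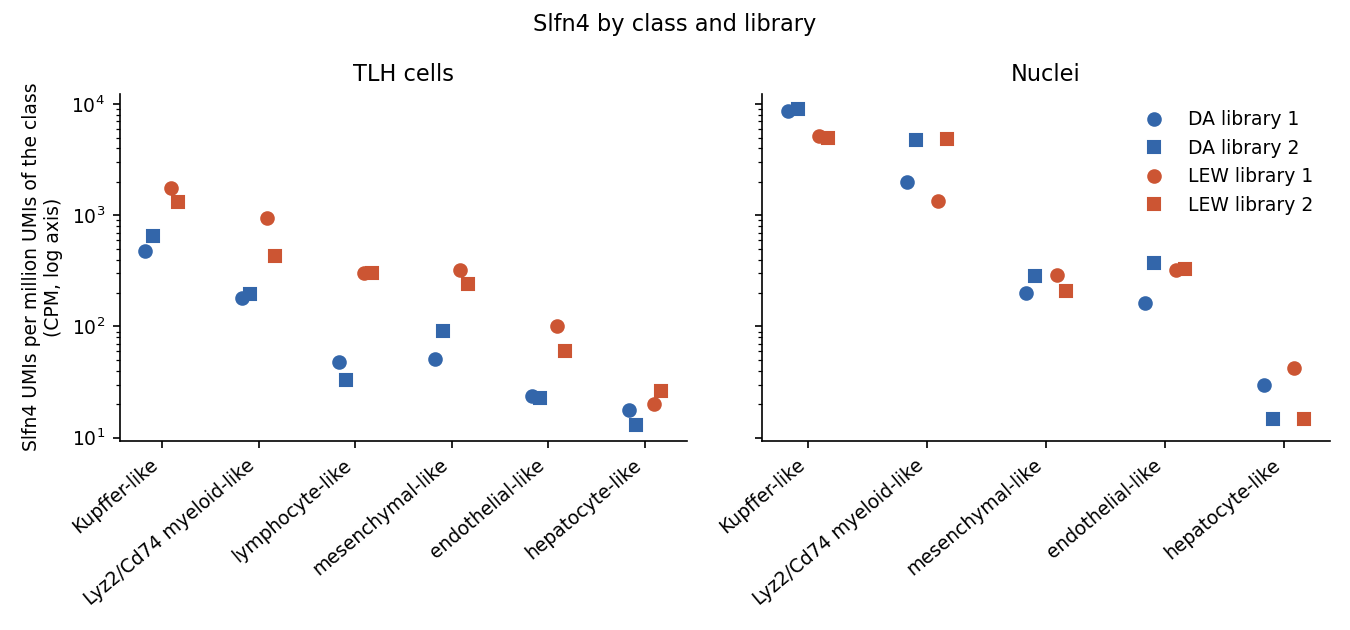
Slfn4 by cell class in TLH cells and in nuclei, in CPM of the class on a log axis; each point is 1 library, coloured by strain. Kupffer-like cells are highest on both platforms, LEW points lie above DA points in every TLH class, and in nuclei the strains separate only in the Kupffer-like class.

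Slfn5 was the member that passed the test between strains in Kupffer-like TLH cells, with LEW higher. Its level was 106 and 129 CPM in DA and 201 and 211 CPM in LEW, with no overlap. The log2 difference (LEW minus DA) was 0.76 ± 0.17 (SE), with an adjusted p of 0.0129 from edgeR's quasi-likelihood test with Benjamini-Hochberg adjustment over 6956 genes (n = 2 rats a strain). Slfn2 stood at 136 and 134 CPM in DA and 197 and 163 CPM in LEW, a log2 difference of 0.37 ± 0.17 (SE) that did not pass (edgeR adjusted p = 0.205). Slfn13 was rare in TLH, with 14 and 24 UMIs in DA and 12 and 10 UMIs in LEW, and its log2 difference of -0.42 ± 0.39 (SE) did not pass (edgeR adjusted p = 0.591). Of the 3 members tested, 1 was called, where 7.65% of all genes tested in this comparison were called and 3.38% were called higher in LEW. The fitted log2 difference of Slfn4 was 1.41 and is given with no test.

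The Slfn5 call depended on LEW-2, on the tool, on the deepest cells and on the UMI limit of the LEW libraries. Without LEW-2 the log2 difference was 0.69 (edgeR adjusted p = 0.109), with DESeq2 0.77 (adjusted p = 0.0822), and without cells above the 95th percentile of UMIs 0.45 (edgeR adjusted p = 0.319). With the stated limit of 1500 UMIs for LEW in place of 2000 it was 0.54 (edgeR adjusted p = 0.112). Per 1000 Kupffer marker UMIs, which were higher in LEW, Slfn5 stood at 5.47 and 5.77 in DA and 5.24 and 5.43 in LEW, so the strains were apart by little and in the opposite order. Slfn2 on the same denominator was lower in LEW, at 7.01 and 5.98 against 5.15 and 4.2. Both genes were concentrated in the marker-rich cluster 5 of TLH, where Slfn2 reached 174 to 264 CPM against 39.8 to 66.1 CPM in cluster 8, and Slfn5 121 to 251 CPM against 67.4 to 106 CPM. The summed markers thus moved with Slfn2 and Slfn5, and their part in the strain difference was not tested.

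In Kupffer-like nuclei Slfn2, Slfn5 and Slfn13 were each higher in both DA than in both LEW libraries, and none passed the test. How many of all genes separated the libraries by strain in this way was not counted, so nothing is concluded from the separation. Slfn2 stood at 247 and 406 CPM in DA and 154 and 130 CPM in LEW, a log2 difference of -1.13 ± 0.34 (SE; edgeR adjusted p = 0.128). Slfn5 stood at 639 and 604 CPM in DA and 414 and 438 CPM in LEW, a log2 difference of -0.46 ± 0.31 (SE; edgeR adjusted p = 0.534). Slfn13 stood at 124 and 217 CPM in DA and 90.4 and 84.5 CPM in LEW, a log2 difference of -0.91 ± 0.36 (SE; edgeR adjusted p = 0.240). Thus edgeR called 0 of 3 members at a background of 1.48% of genes, and DESeq2 also called 0 of them and 40 of the 4526 genes. In edgeR the unadjusted p of 2 of the 3, Slfn2 and Slfn13, was under 0.05, as was that of 650 of the 4526 genes. For Slfn4 the fitted log2 difference was -0.74, given with no test. Within cluster 25 Slfn2 stood at 429 and 754 CPM in DA and at 398 and 314 CPM in LEW, still without overlap. The strains did overlap there for Slfn5 (1024 and 1200 against 1090 and 1038 CPM) and for Slfn13 (248 and 457 against 315 and 205 CPM). Per 1000 Kupffer marker UMIs over the whole class, Slfn2 stood at 21.8 and 39.6 in DA and 22.9 and 21.4 in LEW, and Slfn13 at 10.9 and 21.2 in DA and 13.4 and 14.0 in LEW. Slfn5 stood at 56.3 and 58.9 in DA and 61.4 and 72.3 in LEW. On this denominator the strains overlapped for Slfn2 and Slfn13, and for Slfn5 both LEW libraries lay above both DA libraries, the reverse of the order in CPM.

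The strain effect of Slfn2 differed between platforms in a fit over the 4 TLH and 4 nuclei libraries, taken as separate rats. Its strain-by-platform term (the log2 LEW over DA ratio in nuclei minus that in cells) was -1.54 ± 0.36 (SE), with an edgeR quasi-likelihood adjusted p of 0.0289. For Slfn5 the term was -1.24 ± 0.33 (SE, edgeR adjusted p = 0.0507), just outside the threshold, though it passed with DESeq2 and with a term for replicate number. For Slfn13 it was -0.53 ± 0.52 (SE, edgeR adjusted p = 0.709). In the main edgeR fit 1 member was called at a background of 1.68% of 8696 genes, with 0.977% called in that direction. The Slfn2 term lost the threshold in 7 of the 8 fits that left out 1 library (edgeR adjusted p from 0.0508 to 0.155 in those 7), passing only without nuclei DA-1, and also within the marker-rich clusters (-1.21, edgeR adjusted p = 0.102), at the LEW limit of 1500 UMIs (-1.29, edgeR adjusted p = 0.115) and without the cells of most UMIs (-0.82, edgeR adjusted p = 0.608). Per 1000 Kupffer marker UMIs, the LEW over DA ratio of Slfn2 was 0.720 in TLH cells and 0.723 in nuclei, so no difference between platforms was seen on that denominator, on which no test was run.

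Of the 3 members tested, Slfn13 and Slfn5 also differed in level between nuclei and TLH cells in a fit that took strain into account. Slfn13 was at 8.85 to 12.7 CPM in Kupffer-like TLH cells and at 84.5 to 217 CPM in nuclei, a log2 difference (nuclei minus cells) of 2.61 ± 0.26 (SE) with an edgeR adjusted p of 1.17e-07. Slfn5 was 0.80 ± 0.25 (SE) log2 units higher in nuclei (edgeR adjusted p = 0.00933), a call lost without TLH DA-1 (0.64, edgeR adjusted p = 0.0511). Slfn2 did not pass, at -0.43 ± 0.28 (SE; edgeR adjusted p = 0.190), and its direction depended on the scaling, since in CPM it averaged 158 in cells and 234 in nuclei and within the marker-rich clusters the estimate was 0.431. It passed, lower in nuclei, without nuclei DA-2 (-0.79, edgeR adjusted p = 0.0123) and without the filter on low counts (-0.56, edgeR adjusted p = 0.0465). Slfn2 CPM was higher in nuclei in DA and lower in LEW. Both calls stand against a background of 66.6% of 7943 genes called and 33.5% called higher in nuclei, so a call here is common. Thinned to 1000 UMIs, the mean share of Kupffer-like cells with a UMI was 13.3% in cells and 28.1% in nuclei for Slfn2, 13.4% and 45.0% for Slfn5, and 1.1% and 18.2% for Slfn13.

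LOC688925, which lies within the span of Slfn4 in RefSeq on build GRCr8, showed a platform pattern of its own. For every 100 Slfn4 UMIs, Kupffer-like nuclei held 7.11, 6.40, 5.51 and 6.68 UMIs of LOC688925, and Kupffer-like TLH cells 0.954, 0.784, 0.145 and 0.333. The nuclei libraries were all above the TLH libraries. Reads of overlapping genes may be assigned to either one, but the reads were counted on Rnor_6.0, on which the overlap was not measured.

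Outside Kupffer-like cells, Slfn2 and Slfn5 were spread over more classes than Slfn4. In TLH, Slfn2 averaged 158 ± 29.5 CPM in Kupffer-like, 133 ± 21.8 CPM in lymphocyte-like, 124 ± 15.1 CPM in Lyz2/Cd74 myeloid-like, 74.6 ± 3.34 CPM in endothelial-like, 40.6 ± 17.6 CPM in mesenchymal-like and 8.13 ± 1.96 CPM in hepatocyte-like cells (SD, n = 4). Kupffer-like cells stood above lymphocyte-like and Lyz2/Cd74 myeloid-like cells in each of the 4 libraries, though by only 136 against 133 CPM over lymphocyte-like cells in DA-1, and the latter 2 classes changed places between libraries. Slfn5 averaged 162 ± 51.8 CPM in Kupffer-like, 151 ± 17.9 CPM in lymphocyte-like, 115 ± 31.0 CPM in mesenchymal-like, 87.3 ± 15.3 CPM in Lyz2/Cd74 myeloid-like, 74.5 ± 14.7 CPM in endothelial-like and 10.3 ± 2.41 CPM in hepatocyte-like cells (SD, n = 4), and the ranges of neighbours overlapped except for the last pair. Lymphocyte-like cells stood above Kupffer-like cells in both DA libraries (141 and 131 against 106 and 129 CPM) and below them in both LEW libraries (167 and 166 against 201 and 211 CPM). In nuclei, Slfn5 averaged 1030 ± 534 CPM in the few Lyz2/Cd74 myeloid-like, 732 ± 139 CPM in endothelial-like and 524 ± 114 CPM in Kupffer-like nuclei (SD, n = 4), so the Kupffer-like class as a whole was not the highest for this gene. Its 2 clusters differed, however, and the marker-rich cluster 25 (1024 to 1200 CPM) lay above endothelial-like nuclei (545 to 876 CPM) while cluster 31 (185 to 337 CPM) lay below them. Slfn13 in nuclei averaged 129 ± 61.2 CPM in Kupffer-like and 13 ± 6.0 CPM in endothelial-like nuclei (SD, n = 4), and only 1 to 2 UMIs a library lay behind its 90.2 CPM in Lyz2/Cd74 myeloid-like nuclei.

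The strain test was also run in 3 further TLH classes, where edgeR called 0 of the 2 members tested, Slfn2 and Slfn5, none of them at an unadjusted p under 0.05, and DESeq2 called none. In endothelial-like cells the log2 difference was 0.02 ± 0.19 (SE) for Slfn2 (edgeR adjusted p = 0.973) and 0.34 ± 0.21 (SE) for Slfn5 (edgeR adjusted p = 0.428), at a background of 3.21% of genes called. In Lyz2/Cd74 myeloid-like cells it was 0.21 ± 0.31 (SE; edgeR adjusted p = 0.818) for Slfn2 and -0.13 ± 0.36 (SE; edgeR adjusted p = 0.920) for Slfn5, at 3.19% called. In lymphocyte-like cells it was 0.26 ± 0.27 (SE; edgeR adjusted p = 0.725) and 0.25 ± 0.26 (SE; edgeR adjusted p = 0.717), at 3.0% called. Slfn13 did not reach the filter on low counts in these classes.

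The immune-enriched libraries, with 1 rat a strain and so no test, held neutrophil-like and B-like cells as classes of their own, which the TLH map did not. Intervals are exact 95% Poisson intervals, which cover counting error only. Slfn4 in Kupffer-like cells was 681 CPM (620 to 746) in DA and 1143 CPM (1089 to 1199) in LEW, on 84 and 133 cells. Beside the Kupffer subcluster of 46 and 85 cells, this class took in cells of a subcluster led by hepatocyte genes such as Hamp and Ca3. Neutrophil-like cells had 2137 CPM (1635 to 2745) in DA and 6659 CPM (5400 to 8123) in LEW, but on only 16 and 10 cells. Lyz2/Cd74 myeloid-like cells had 430 CPM (387 to 476) in DA and 835 CPM (753 to 923) in LEW. LEW was above DA beyond counting error in each of these 3 myeloid classes. The 2 libraries also differed in the mitochondrial share of UMIs, at 17.5% in DA and 10.9% in LEW for Kupffer-like, 15.4% and 10.6% for neutrophil-like and 12.9% and 9.84% for Lyz2/Cd74 myeloid-like cells, and the summed Kupffer markers of Kupffer-like cells were at 63460 CPM in DA and 86676 CPM in LEW. The part of these differences was not tested. Unnamed cells, led mostly by mesenchymal or endothelial genes (34 in DA and 76 in LEW), were kept out of these classes. They nevertheless held 355 and 5749 Clec4f UMIs and 7.29% and 27.4% of the Slfn4 UMIs of all kept cells. Their Slfn4 was at 273 CPM in DA and 575 CPM in LEW.

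Among lymphocytes of the immune-enriched libraries Slfn4 was uneven. NK-like cells had 71.3 CPM (50.2 to 98.3) in DA and 547 CPM (458 to 647) in LEW, and CD3 T-like cells 4.30 CPM (0.521 to 15.5) in DA and 63.8 CPM (40.4 to 95.7) in LEW. B-like cells had 0 Slfn4 UMIs in 63 DA and 49 LEW cells, which allows a level of up to 15.3 and 19.5 CPM (3 UMIs). Erythroid-like cells also had 0 Slfn4 UMIs, in 110 and 223 cells, which allows up to 4.63 and 2.39 CPM, and hepatocyte-like cells had 0.594 and 1.28 CPM, against 13 to 26.5 CPM in TLH. Within the Lyz2/Cd74 myeloid-like cells, a subcluster with S100a4, Spn and S1pr5 among its leading genes had Slfn4 at 702 CPM in DA and 1002 CPM in LEW, above 269 and 515 CPM in one with Slpi, Cst3 and Clec10a among them.

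**Figure D4:**
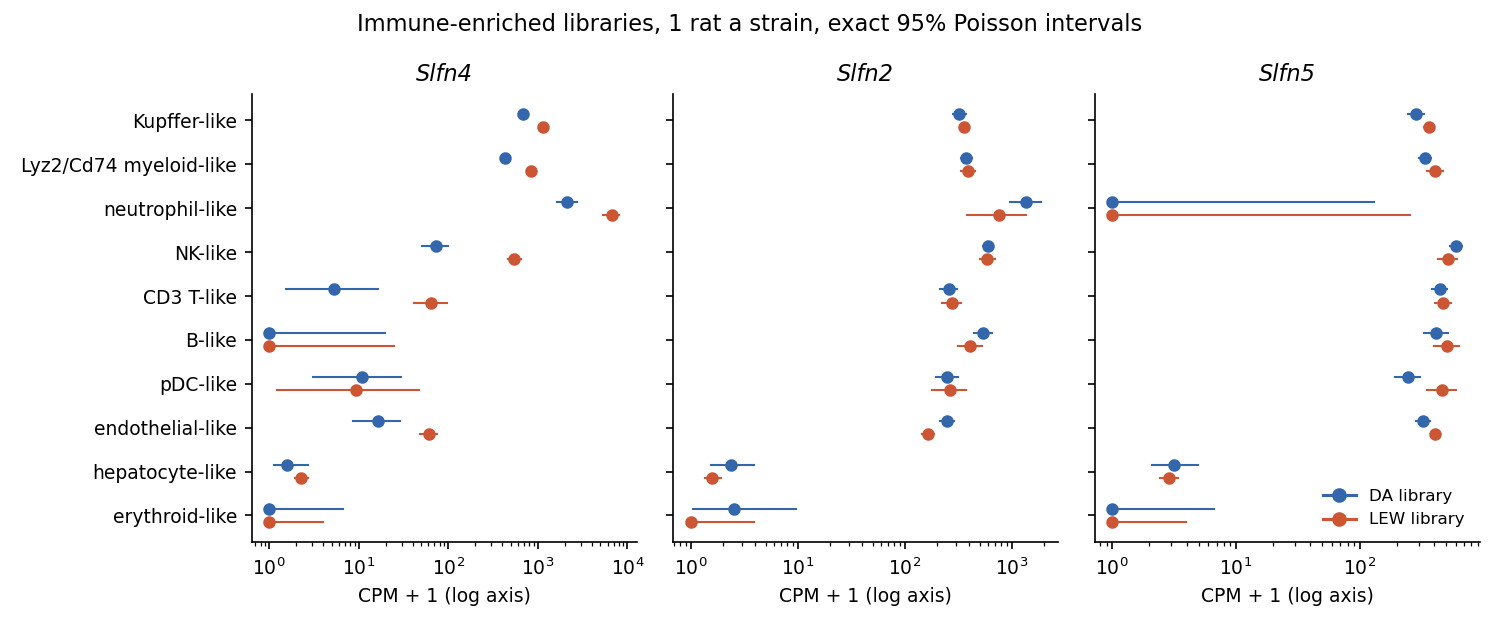
Slfn4, Slfn2 and Slfn5 by cell class in the DA and the LEW immune-enriched library, in CPM plus 1 on a log axis with exact 95% Poisson intervals that cover counting error only. Slfn4 is highest in neutrophil-like cells (2137 and 6659 CPM) and at 0 in B-like and erythroid-like cells, whereas Slfn2 and Slfn5 are high in lymphocyte classes.

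Slfn2 and Slfn5 were high in lymphocyte as well as in myeloid classes of these libraries. Slfn2 was 597 and 592 CPM in NK-like, 539 and 410 CPM in B-like, 258 and 274 CPM in CD3 T-like and 324 and 358 CPM in Kupffer-like cells of the DA and the LEW rat, and 1366 and 755 CPM in neutrophil-like cells. Slfn5 was 603 and 518 CPM in NK-like, 445 and 474 CPM in CD3 T-like and 417 and 508 CPM in B-like cells. In Kupffer-like cells Slfn5 was 285 CPM (246 to 328) in DA and 361 CPM (330 to 393) in LEW. Neutrophil-like cells, the class with the highest Slfn4, had 0 Slfn5 UMIs, which allows up to 105 CPM in DA and 206 CPM in LEW at the floor of 3 UMIs. Slfn13 stayed at 14.8 and 28.8 CPM in Kupffer-like and 23.1 and 24.5 CPM in NK-like cells.

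The genes whose pattern over class-by-library sums was most like that of Slfn4 were read from the Pearson correlation of log2(CPM + 1), as a description over sums that share libraries, depth and free RNA. Over 28 TLH sums and 9559 genes the nearest were Il18 (0.878), Jak2 (0.875), Fcgr2a (0.874), Fcgr3a (0.872) and Tnfaip8l2 (0.866), while Slfn5 stood at 0.660, Slfn2 at 0.642 and Slfn13 at 0.230. Over 24 nuclei sums and 9899 genes the nearest was the family member Slfn13 (0.971), on only 165 UMIs. By library, 57.1 to 80.0% of its UMIs lay in Kupffer-like nuclei, and no sum of another class held over 10. Its rank thus rests on sparse counts. Cyba (0.959), Pik3cd (0.958), Fyb1 (0.956) and Csf1r (0.953) followed, with Slfn2 at 0.897 and Slfn5 at 0.847. Several of these are textbook macrophage genes, among them the Fc receptors Fcgr2a and Fcgr3a, the cytokine Il18 and the growth factor receptor Csf1r. With Spearman's rank correlation, 2 of the 5 nearest genes were shared on each platform.

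Since Schlafen genes are known as interferon-induced, 32 interferon-inducible genes were followed beside them. In Kupffer-like TLH cells 25 were tested, 4 were higher in LEW and 1 was higher in DA, where 7.65% of all genes were called. DESeq2 called 3 of the 25, and edgeR with 1 library left out 3 to 7. Their median log2 difference was 0.487 against -0.018 over all genes tested. Those higher in LEW were the guanylate-binding protein Gbp2 (1.52 ± 0.19 SE, edgeR adjusted p = 0.000144), the ubiquitin-like Isg15 (1.15 ± 0.19 SE, edgeR adjusted p = 0.00145), the RNA sensor Oas1a (1.11, edgeR adjusted p = 0.00249) and the nucleotide kinase Cmpk2 (1.03, edgeR adjusted p = 0.0381), and the one higher in DA was Oasl2 (-0.65 ± 0.17 SE, edgeR adjusted p = 0.0266). In Kupffer-like nuclei 13 were tested and 0 called by edgeR or by DESeq2, where edgeR called 1.48% of all genes. The unadjusted edgeR p was under 0.05 for 2 of the 13 and for 650 of all 4526 genes. The median log2 difference of the 13 was -0.253 against 0.01 over all genes. In endothelial-like TLH cells 25 were tested, Isg15 (1.18), Ifit3 (1.05) and Trim25 (1.57) were higher in LEW and Oasl2 (-2.09 ± 0.24 SE, edgeR adjusted p = 0.000356) was lower, with a median of 0.366, where 3.21% of all genes were called. These 4 calls became 2 with DESeq2, 1 without LEW-1 and 2 without LEW-2. Of 28 tested for a strain-by-platform term, Ifit3 alone passed in edgeR (-2.78, adjusted p = 0.0478) and 0 in DESeq2, where 1.68% of all genes were called, and the median was -0.5 against 0.042 over all genes. In 7 of the 8 fits that left out 1 library none of the list was called. Among the most counted of the list, Bst2, a membrane protein that tethers virus, was at 520 and 587 CPM in DA and 710 and 546 CPM in LEW TLH cells and at 269 and 156 CPM in DA and 233 and 103 CPM in LEW nuclei, and Oasl2 at 166 and 173 CPM in DA and 118 and 105 CPM in LEW TLH cells and at 719 and 684 CPM in DA and 384 and 293 CPM in LEW nuclei. Oasl2 was thus higher in DA on both platforms without overlap. It was the 1 called gene higher in DA in Kupffer-like TLH cells, against 4 higher in LEW. How many of all genes separated the strains in this way was not counted. The others of the 4 most counted were Rtp4 (126 and 102 CPM in DA, 170 and 158 CPM in LEW) and the factor Irf7 (161 and 78.5 CPM in DA, 149 and 128 CPM in LEW) in TLH cells, and in nuclei the signal transducer Stat2 (378 and 373 CPM in DA, 471 and 465 CPM in LEW) and Parp14 (320 and 288 CPM in DA, 297 and 178 CPM in LEW). In Lyz2/Cd74 myeloid-like TLH cells 8 of the list were tested, and edgeR and DESeq2 called 0. There 2 of the 8 had an unadjusted edgeR p under 0.05, as did 380 of all 2442 genes. In lymphocyte-like TLH cells 11 were tested, and edgeR and DESeq2 called 0. There 4 of the 11 had an unadjusted edgeR p under 0.05, as did 542 of all 3434 genes. Between platforms, 7 of 27 tested were higher in nuclei and 13 in cells, near the 66.6% of all genes called in that fit, with a median log2 difference of -0.643 against 0.072 over all genes.

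On the Visium sections, where each spot covers several cells, Slfn4 was sparse. Its ratios between zones were below those of Kupffer markers, though some intervals overlapped. Section A held 464 and section B 542 Slfn4 UMIs (13.5 and 15.6 CPM), found in 16.9% of 2437 and 18.9% of 2404 spots. Slfn2 had 311 and 322 UMIs, Slfn5 357 and 399 UMIs and Slfn13 165 and 176 UMIs. Per 1000 Kupffer marker UMIs, Slfn4 stood at 11.5 and 11.8 in the sections, at 10.7 and 13.2 in Kupffer-like immune-enriched cells, at 24.5 to 46.1 in Kupffer-like TLH cells and at 759 to 877 in Kupffer-like nuclei. The sections thus lay with the immune-enriched cells and far below the nuclei, and strain, chemistry and cell mixture differ among these and cannot be told apart.

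Spots were ranked from pericentral to periportal by zonation genes, and the 812 (A) and 801 (B) spots at each end were compared. The periportal over pericentral ratio of Slfn4 was 1.15 (exact 95% interval for counting error, 0.916 to 1.44) for section A, and for B it was 1.32 (1.07 to 1.64). It was 1.23 (0.918 to 1.65) and 1.36 (1.03 to 1.80) for Slfn2, 1.31 (1.01 to 1.70) and 1.31 (1.03 to 1.67) for Slfn5, and 1.04 (0.703 to 1.55) and 1.27 (0.874 to 1.86) for Slfn13. All 8 ratios were above 1, but the interval held 1 for both sections of Slfn13 and for section A of Slfn4 and Slfn2. With spots under 5000 UMIs left out the ratio of Slfn13 in section A was 0.983 (0.661 to 1.46), and with all spots split at the middle of the ranking, 1218 at each end in section A, it was 0.849 (0.617 to 1.17). The interval of Slfn2 in section B then also held 1, at 1.26 (0.953 to 1.66) and 1.18 (0.943 to 1.49), and with the split at the middle so did that of Slfn5 in section B, at 1.21 (0.988 to 1.48). The intervals of Slfn4 kept their side of 1 in both. The Kupffer markers Clec4f (1.67 and 1.70), Cd5l (2.22 and 2.29) and Marco (3.41 and 4.90) had larger ratios, and their intervals are drawn in the plot of section ratios. Cd163 was nearer to Slfn4, at 1.51 (1.23 to 1.85) and 1.89 (1.58 to 2.27), and its interval overlapped that of Slfn4 in both sections. In section B the interval of Clec4f (1.60 to 1.82) overlapped it too.

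Between the same number of spots richest and poorest in the summed Kupffer markers, the Slfn4 ratio was 1.18 (0.941 to 1.47) for section A, and 1.56 (1.26 to 1.93) for B. For Slfn2 it was 1.5 (1.13 to 2.00) and 1.70 (1.28 to 2.27), for Slfn5 1.26 (0.968 to 1.63) and 1.13 (0.884 to 1.44), and for Slfn13 1.28 (0.855 to 1.92) and 1.79 (1.21 to 2.68). With spots under 5000 UMIs left out, the interval of Slfn5 in section A no longer held 1 (1.32, 1.01 to 1.71), and the other 7 intervals kept their side of 1, as all 8 did with the split at the middle. Clec4f (2.84 and 2.87) is part of the ranking, so its ratio is fixed by it. Over spots, the Spearman correlation of Slfn4 with the Kupffer marker sum was 0.038 and 0.085 and with the total UMIs of the spot 0.147 and 0.190 (2437 and 2404 spots, sparse counts), all of them weak. In a spot, fewer Kupffer cells and less RNA per cell cannot be told apart.

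**Figure D5:**
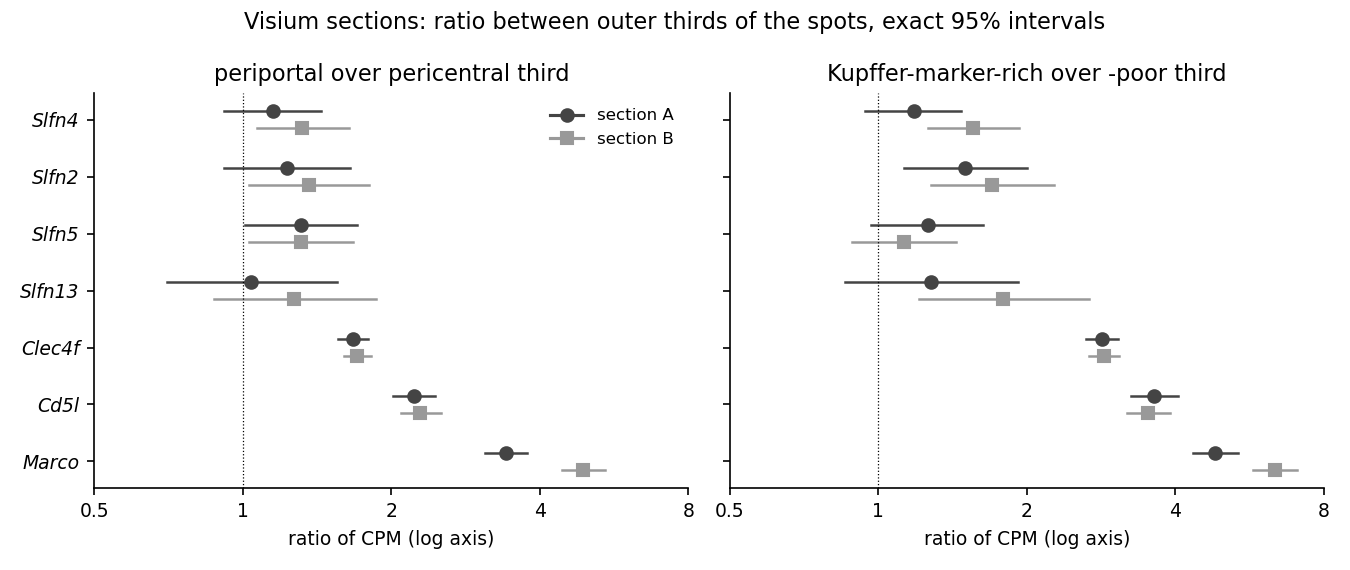
Ratio of CPM between the spots at each end of a ranking in Visium sections A and B, for periportal over pericentral spots and for spots rich over poor in Kupffer markers, with exact 95% intervals that cover counting error only. The Schlafen genes lie between 1.04 and 1.79 and under the Kupffer markers Clec4f, Cd5l and Marco in each comparison, and the ranking by Kupffer markers uses those 3 genes.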

How the data were processed

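Alignment by the authors used Cell Ranger 3.1.0, or Space Ranger 1.1.0 for sections, with a custom Rnor_6.0 reference. The deposited values are raw UMI counts by gene and barcode, before the filters on UMIs and mitochondrial share. The TLH files together hold as many barcodes as the study says Cell Ranger called as cells, and none of these has under 325 UMIs. Files of TLH and immune-enriched cells lack gene names, so row order was matched to the nuclei list, which has as many rows. Members and gene lists were chosen with earlier results of these data known.

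Barcodes were kept with at least 1000 UMIs (immune-enriched, nuclei), 1500 (TLH DA-1) or 2000 (other TLH libraries) and with a mitochondrial share of at most 50% (immune-enriched), 10% (nuclei), 30% (TLH DA-1), 20% (DA-2) or 40% (LEW). The LEW limit is above the stated 1500 because it leaves the authors' cell numbers. Counts were normalized with sctransform 0.4.2 (3000 features), joined by a Harmony correction on 15 components and clustered with Seurat 5.3.0 (20 neighbours; resolution 0.6, nuclei 2.5; immune subclusters 1). Genes named Slfn were left out of the clustering. A cluster was named from at least 3 markers among its 30 leading genes. Clusters left unnamed were called hepatocyte-like if a longer list of leading genes, taken against the named non-hepatocyte clusters, met the same rule. Of the nuclei of a library 17.1 to 43.5% stayed unnamed, among them clusters with Glul or Sds among their leading genes. Doublets were not called; cells above the 95th percentile of UMIs were left out as an alternative.

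UMI sums per library and class were tested in R 4.3.3 with edgeR 4.0.16 (quasi-likelihood, TMM, its filter on low counts, Benjamini-Hochberg at 0.05 over all genes tested), after a test on simulated data. The rat is the unit, with 2 rats a strain. The spread behind a p-value is that of the gene between rats, drawn towards the spread of all genes tested. The SE beside an edgeR log2 difference is the size of that difference divided by the square root of the test's F statistic. DESeq2 1.42.0 was the alternative test. The fits by platform took all 8 libraries and assumed the same dispersion of a gene on both platforms. Within a platform, libraries with the same replicate number did not deviate together. Numbers were not paired across platforms, whose file names order the DA animals differently. Named beside the members were Kupffer markers, the 5 genes most like Slfn4, and of the interferon list the counts, the called genes and the most counted. The interferon genes that passed were named after their values were seen.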

Additional observations from a re-analysis of the deposited data

Results flagged for a closer look

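The LEW over DA ratio of Slfn4 in Kupffer-like cells was opposite between the platforms, at 1.45 on the log2 scale of the CPM in TLH and -0.82 in nuclei, with all LEW libraries on one side of all DA libraries in each. This difference was not tested, since it is part of why the gene was chosen. In nuclei it was -0.36 and -0.05 within clusters 25 and 31, and per 1000 Kupffer marker UMIs the nuclei ratio was 0.958 with the strains overlapping. Per Clec4f UMI the nuclei strains overlapped as well, and per Cd5l UMI DA stayed above LEW. For Slfn2 the same difference between platforms passed the test, with a strain-by-platform term of -1.54 (edgeR quasi-likelihood test, adjusted p = 0.0289). That call was lost in 7 of the 8 fits that left out 1 library, within the marker-rich clusters (adjusted p = 0.102), at the LEW limit of 1500 UMIs (adjusted p = 0.115) and without the cells of most UMIs (adjusted p = 0.608), all with edgeR, and per 1000 Kupffer marker UMIs the LEW over DA ratio was 0.720 in TLH cells and 0.723 in nuclei.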

How the results depend on the processing

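Numbers of genes called moved with the settings, and the strain-related calls of Slfn2 and Slfn5 were lost under several of them. DESeq2 called 186 genes in Kupffer-like TLH cells, 40 in Kupffer-like nuclei, 115 in endothelial-like, 35 in Lyz2/Cd74 myeloid-like and 30 in lymphocyte-like TLH cells, against 532, 67, 235, 78 and 103 with edgeR. Without the filter on low counts the counts were 198 (nuclei), 499 (endothelial-like), 127 (Lyz2/Cd74 myeloid-like) and 270 (strain by platform, 146 with it). Without cells above the 95th percentile of UMIs they were 216 (Kupffer-like TLH), 31 (nuclei), 36 (Lyz2/Cd74 myeloid-like), 67 (lymphocyte-like) and 5 (strain by platform). With each library clustered on its own they were 103, 51, 68 and 304 for nuclei, Lyz2/Cd74 myeloid-like, lymphocyte-like and strain by platform. With the LEW limit at 1500 UMIs they were 280 (Kupffer-like TLH) and 29 (strain by platform). Within the marker-rich clusters, a split added after seeing the data, they were 94 (strain by platform) and 3423 (platform, 5294 over the class), and within the marker-poor clusters 71 (TLH), 5 (nuclei), 4 (strain by platform) and 3451 (platform). Leaving out 1 library gave 273 to 656 calls in Kupffer-like TLH cells, 36 to 135 in nuclei, 13 to 566 in endothelial-like, 64 to 126 in Lyz2/Cd74 myeloid-like and 66 to 233 in lymphocyte-like cells, and 12 to 135 for strain by platform, where a group left with 1 library is assumed to vary like the others. Causes were not tested. Same-numbered libraries correlated at -0.155 to 0.037 in their deviations, so the numbers do not pair them. With the replicate block 5 genes were called in nuclei and 150 in Lyz2/Cd74 myeloid-like cells, and no other count moved by over 1.5 times. The crossed pairing, also added later, gave 578 in Kupffer-like TLH and 151 in lymphocyte-like cells.

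The Slfn4 log2 LEW over DA value in TLH, in CPM, lay between 1.23 and 1.70 under the other cell sets, clusters and left-out libraries, while per 1000 marker UMIs the ratio was 1.5 against 2.74 in CPM. In nuclei the log2 value was -0.25 without the cells of most UMIs, -0.96 with libraries clustered on their own, -0.36 in the marker-rich and -0.05 in the marker-poor cluster. Mean shares with a UMI fell on thinning to 53.7% (TLH) and 91.9% (nuclei) for Slfn4, to 13.3% and 28.1% for Slfn2, 13.4% and 45.0% for Slfn5, and 1.1% and 18.2% for Slfn13. Spearman's correlation shared 2 of 5 nearest genes in TLH and 2 in nuclei. Among the alternative fits, values that changed sign lay on differences that had not passed, though per 1000 marker UMIs the order of Slfn5 in Kupffer-like TLH cells, which had passed, turned as well (LEW over DA ratio 0.949). For Slfn2 these were -0.337 in the marker-poor TLH cluster, in endothelial-like cells -0.0120 without the filter, -0.180 at 1500 UMIs and -0.0468 to 0.0792 with 1 library left out (-0.0314 without DA-2), and for platform 0.311 without the cells of most UMIs and 0.431 and 0.299 in the marker-rich and marker-poor clusters. For Slfn5 in Lyz2/Cd74 myeloid-like cells they were -0.406 to 0.0788 with 1 library left out, 0.117 without the cells of most UMIs and 0.0108 with libraries clustered on their own, and for Slfn13 the strain-by-platform term was 0.947 in the marker-poor clusters.

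The Slfn5 difference in Kupffer-like TLH cells also missed the threshold in the marker-poor cluster (0.47, edgeR adjusted p = 0.580). The strain-by-platform term of Slfn5 passed with DESeq2 (adjusted p = 0.0120) and with the replicate block (edgeR adjusted p = 0.0448). Detection was limited. In simulated data edgeR recovered 43 of 100 2-fold and 96 of 100 4-fold changes in Kupffer-like TLH cells, 13 and 82 in Kupffer-like nuclei, and 0 and 20 for strain by platform, so 2-fold changes were mostly missed there and most 4-fold ones too in the last. Among genes left unchanged, the same simulations gave 12, 9 and 9 false calls. For strain by platform, 9 false calls thus stood beside 20 true ones. The Slfn2 and Ifit3 calls rest on that kind of fit.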
